A study of Mus musculus with 4 samples.

Results

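The genes described here encode the factors of the complement and coagulation cascades and of fibrinolysis. They were taken from a list of 48 gene symbols, 21 of complement and 27 of coagulation and fibrinolysis, and each gene was read from probe sets whose annotation names that gene alone. Of the 48 genes, 44 had such a probe set, among 12393 genes on the array that did. C3, C4b, Cfd and Cpb2 are not analysed here. A gene was counted as measured when at least 1 array read above a floor of 16 intensity units, which left 37 of the 44 genes, against 6947 of all genes.

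Livers came from male mice aged 3 to 5 months, in 4 groups. PPARα-null mice of substrain 129S4/SvJae and wild-type mice, named as 129S1/SvImJ in the series text and as 129Sv on the sample labels, were each studied after a fast of 24 hours or fed. Fed mice were taken when the dark cycle ended. RNA of the 5 mice of a group was pooled and run on 1 Affymetrix MOE430A array, so no difference had a replicate check and no p-value was computed. The null mice lacked the receptor in every tissue and differed from the wild-type mice in substrain, so genotype and substrain cannot be told apart. Values are GCRMA intensities, called units here, on a linear scale. Differences are on the log2 scale, and a gene was called higher or lower when it differed by 1.5-fold or more.

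Complement is a set of plasma proteases and their substrates that mark and perforate microbes. The classical and lectin routes start from antibodies or sugars, the alternative route amplifies the signal, and all of them feed the terminal components, which assemble into a pore. Coagulation is a parallel cascade of proteases that ends with the conversion of fibrinogen to fibrin by thrombin, and plasmin dissolves the clot. Hepatocytes make most of these plasma proteins, and several of them, the fibrinogen chains among them, belong to the acute phase response of the liver. PPARα is a nuclear receptor that fatty acids activate and that controls much of hepatic fatty acid oxidation.

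The arrays had a median between 14.4 and 14.6 units over 22626 probe sets, and their brightest probe set lay between 26249.5 and 31042 units. The targeted gene, Ppara, read 16.3 units in fasted null and 755 units in fasted wild-type liver, and 104 units in fed null and 583 units in fed wild-type liver, which was the direction of the labels. All 6 hepatocyte markers in the table were measured, and they summed to 78726 units in fasted null and 70347.9 units in fasted wild-type liver, and to 63369.8 units in fed null and 63991 units in fed wild-type liver. Lymphocyte markers were at the floor on all arrays. The 6 markers of the exocrine pancreas in the table summed to 942 units in fed null and 666 units in fed wild-type liver, and to 156 units in fasted null and 147 units in fasted wild-type liver. Cela1 alone read 744.5 units in fed null and 551.8 units in fed wild-type liver, and 55.0 and 53.9 units in the fasted pools. Of the 5 measured markers 5 were lower after fasting in null and 1 in wild-type liver, and 0 were higher in either. The shares of all measured genes lower were 18.0% and 8.29%. Cpb1 was above the floor on the fed null array alone. After fasting it could only be lower in null and could not differ in wild-type liver. Different probe sets of the same gene, taken over 861 genes, scattered with an SD of 0.30 in the comparison of fasted null with fasted wild-type liver, 0.19 in the fed comparison of genotypes, 0.24 for fasting in wild-type and 0.37 for fasting in null liver. This scatter describes probes and not animals.

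The first question was how the genotypes differed in each feeding state. After the fast 6 of the 37 genes were higher in null liver, namely C6, C8a, C8b, Cfp, F11 and Thbd, and Klkb1 was the 1 lower gene. Among all measured genes 8.58% were higher and 13.6% were lower. The median log2 difference was 0.24 for these genes and -0.01 for all measured genes. The difference was positive in 28 of the 37 genes and in 3179 of the 6947. Thbd and F8 were above the floor on the fasted null array alone, so they counted as measured through that array and could differ in 1 direction only. Over the 33 genes of the list at 64 units or more on all arrays 4 were higher (12.1%), against 9.42% of the 2931 such genes on the array, and 1 was lower (3.03%), against 15.6%. Of the 16 measured complement genes 4 were higher, with a median of 0.36, and of the 21 measured coagulation genes 2 were higher and 1 was lower, with a median of 0.14. In the fed state C2 was the 1 gene past the threshold, higher in null liver, and the median was 0 over both the 37 genes and all measured genes. The background in the fed state was 2.38% higher and 2.12% lower.

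**Figure D1:**
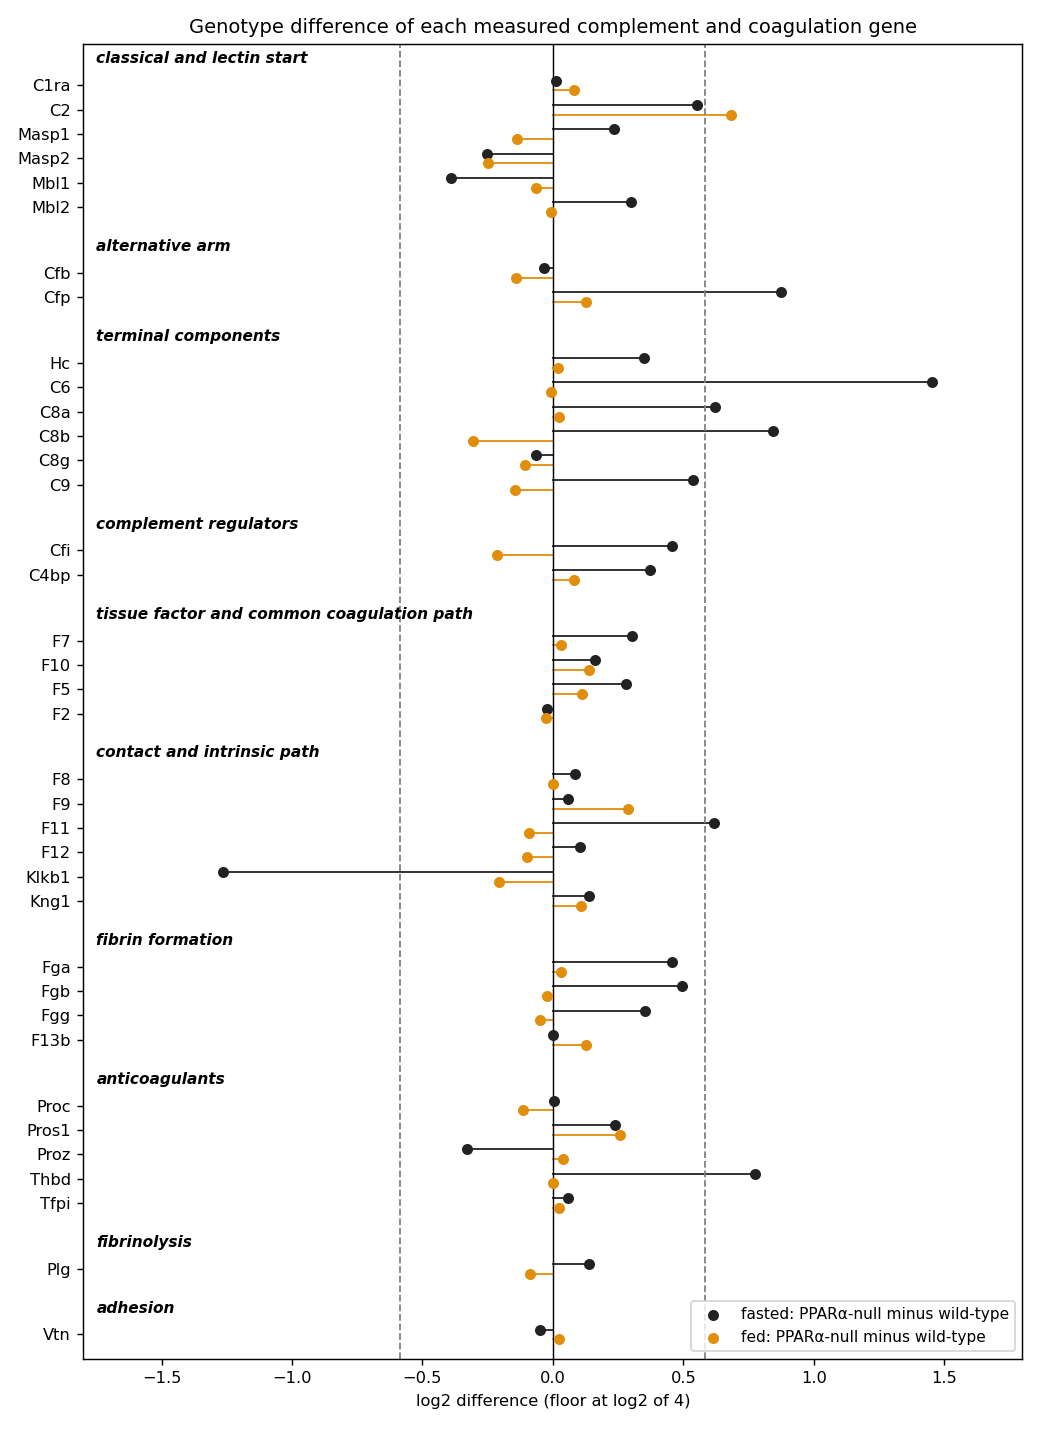
Log2 difference of PPARα-null minus wild-type liver for each of the 37 measured genes, grouped by role, in the fasted (black) and the fed state (orange), with 1 pooled array per group. Dashed lines mark 1.5-fold in either direction. C6 at 1.45 and Klkb1 at -1.26 lie farthest from 0 in the fasted state, and C2 at 0.68 is past the line in the fed state.

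The response to fasting was described in each genotype separately, and these comparisons share no array. In wild-type liver 7 of the 37 genes were lower after the fast, namely C6, C8a, C8b, C9, C4bp, F7 and F11, and 0 were higher, against 8.29% of all measured genes lower and 8.20% higher. In null liver 4 genes were lower, namely Mbl1, F11, Proz and Klkb1, and C6 and Thbd were higher, against 18.0% of all measured genes lower and 12.4% higher. Thbd was again measured through the fasted null array alone. Over the 33 genes of the list at 64 units or more on all arrays C6 was the 1 higher gene (3.03%), against 14.3% of the 2931 such genes on the array. Of these 33 genes 4 were lower (12.1%), against 20.2%. The median difference was -0.18 in wild-type and 0.02 in null liver. F11 was the 1 gene lower in both genotypes, which is 14.3% of the genes lower in wild-type and 25.0% of those lower in null liver. Over all measured genes the shared part was 72.2% of the genes lower in wild-type and 33.3% of those lower in null liver. The shared part can depend on the threshold, since F7, C4bp, C9 and C8a were only 1.503-fold to 1.578-fold lower in wild-type liver. Their fasting differences in null liver were -0.31, -0.31, 0.04 and -0.06.

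**Figure D2:**
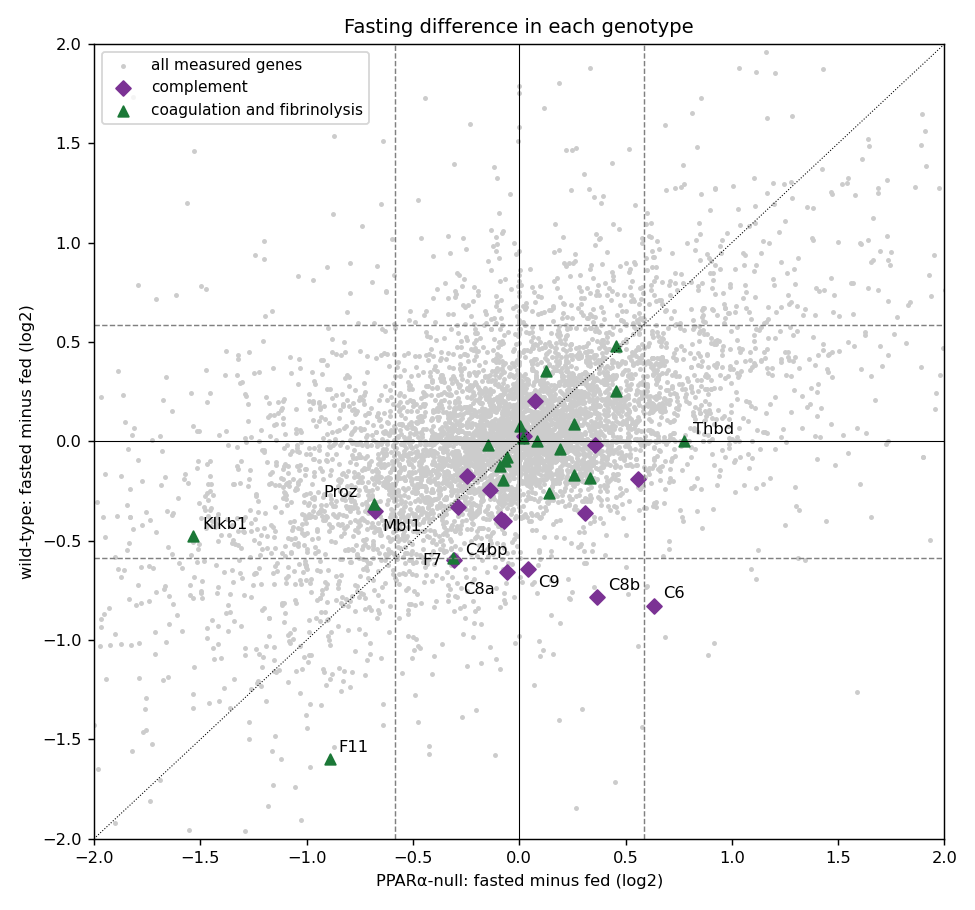
Fasted minus fed log2 difference in PPARα-null (horizontal axis) and wild-type liver (vertical axis) for the measured complement genes (diamonds), coagulation genes (triangles) and all measured genes (grey), with dashed lines at 1.5-fold and a dotted line of equal difference. Genes past 1.5-fold in either genotype are named, and 296 of all 6947 measured genes lie outside the axes. C6, C8a, C8b and C9 sit below the lower dashed line of wild-type liver and between -0.06 and 0.64 in null liver.

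The terminal components were the role with the most genes past the threshold between the fasted genotypes and for fasting in wild-type liver. Between the fasted genotypes 3 of the 6 were higher, against 8.58% of all measured genes. For fasting in wild-type liver 4 of the 6 were lower, against 8.29%. Between the fed genotypes 0 were past the threshold, and for fasting in null liver 1 was. C6 encodes the component that joins C5b and starts the assembly of the membrane attack complex. It read 1543 units in fasted null and 564 units in fasted wild-type liver, and 994 units in fed null and 999.6 units in fed wild-type liver. The fed pools were alike, the fasted wild-type pool was the lowest and the fasted null pool the highest. C6 was therefore 2.74-fold higher in null liver in the fasted state, 1.77-fold lower after fasting in wild-type and 1.55-fold higher after fasting in null liver.

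C8 is made of an alpha, a beta and a gamma chain, and the chains differed in their values. C8a, the alpha chain, read 5459 units in fasted null and 3545 units in fasted wild-type liver, and 5688 units in fed null and 5592 units in fed wild-type liver. C8b, the beta chain, read 3084 units in fasted null and 1720.1 units in fasted wild-type liver, and 2390 units in fed null and 2957 units in fed wild-type liver. For both genes the fasted wild-type pool stood below the other 3 pools. In the fasted state C8a was 1.54-fold and C8b 1.79-fold higher in null liver, and both were lower after fasting in wild-type liver, by 1.58-fold and 1.72-fold. C8b has a single probe set on the array, of a type that reads several transcripts of 1 gene. C8g, the gamma chain, which belongs to the lipocalin family, read 4176 units in fasted null and 4365 units in fasted wild-type liver, and 5096 units in fed null and 5485 units in fed wild-type liver. Its differences were -0.06 between the fasted and -0.11 between the fed pools, so it was under the threshold in both.

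C9, which polymerizes to line the pore, read 6425 units in fasted null and 4427 units in fasted wild-type liver, and 6249 units in fed null and 6919 units in fed wild-type liver. It was 1.56-fold lower after fasting in wild-type liver, while its 1.45-fold excess in fasted null over fasted wild-type liver was just under the threshold. Hc, the gene of complement component C5, read 4732 units in fasted null and 3718 units in fasted wild-type liver, and 4970.4 units in fed null and 4905 units in fed wild-type liver. The fasted wild-type pool was again the lowest, with a log2 difference of 0.35 between the fasted pools. Over the 6 terminal components the median difference was 0.58 between the fasted genotypes, -0.06 between the fed genotypes, -0.65 for fasting in wild-type and -0.01 for fasting in null liver.

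**Figure D3:**
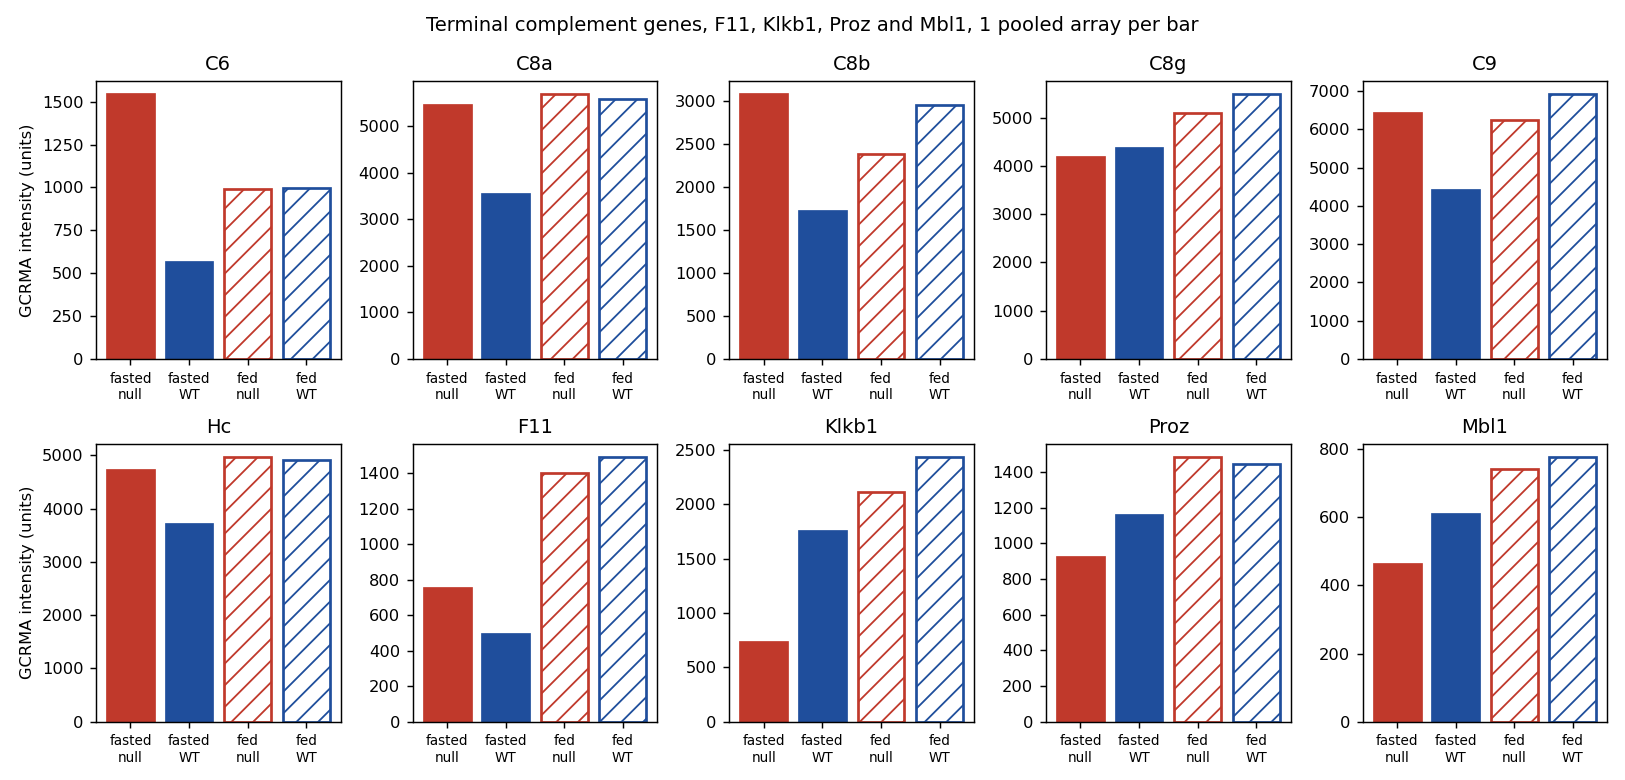
GCRMA intensity on a linear axis from 0 of the 6 terminal complement genes and of F11, Klkb1, Proz and Mbl1, with 1 bar per pooled array (red for PPARα-null, blue for wild-type, filled for fasted, hatched for fed). The fasted wild-type bar is the lowest for C6 at 564 units, C8a at 3545 units and C9 at 4427 units, and the fasted null bar is the lowest for Klkb1 at 729 units.

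The promoters of C6, C8a and C8b are shown because these 3 genes share a role and were all higher in null liver in the fasted state. Each holds 250 bases before the RefSeq start of the gene and 50 after it, 5′ to 3′. Capitals mark every match, on either strand, to 1 of 5 motifs: TTCNNNGAA, which STAT factors bind, CTGGGAA, an element of interleukin-6 responsive genes, TTGCNNAA, of the kind bound by C/EBP factors, GTTAAT, a part of the site of HNF1, and the PPAR response element, searched as an exact direct repeat with 1 base between its arms.
C6 promoter, GRCm38.p6, chr15:4726960-4727259, plus strand: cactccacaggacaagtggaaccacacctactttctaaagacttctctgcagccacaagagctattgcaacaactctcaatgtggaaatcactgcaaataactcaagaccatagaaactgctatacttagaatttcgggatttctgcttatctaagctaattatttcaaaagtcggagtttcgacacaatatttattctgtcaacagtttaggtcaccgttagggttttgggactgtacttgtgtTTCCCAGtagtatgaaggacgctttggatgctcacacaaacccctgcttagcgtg
C8a promoter, GRCm38.p6, chr4:104876349-104876648, minus strand: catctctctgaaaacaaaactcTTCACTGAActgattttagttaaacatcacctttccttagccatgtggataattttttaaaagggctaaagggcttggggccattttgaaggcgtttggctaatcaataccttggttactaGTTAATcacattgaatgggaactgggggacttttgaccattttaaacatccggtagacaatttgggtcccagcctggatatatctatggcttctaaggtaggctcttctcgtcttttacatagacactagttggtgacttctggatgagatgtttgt
C8b promoter, GRCm38.p6, chr4:104766067-104766366, plus strand: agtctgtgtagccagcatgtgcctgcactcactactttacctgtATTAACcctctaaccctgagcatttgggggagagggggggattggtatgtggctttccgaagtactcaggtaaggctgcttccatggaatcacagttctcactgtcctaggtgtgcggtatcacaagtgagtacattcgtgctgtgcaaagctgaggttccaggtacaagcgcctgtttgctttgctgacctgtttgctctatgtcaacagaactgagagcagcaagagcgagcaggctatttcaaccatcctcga

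The 3 promoters held different matches. The C6 window had 1 match to CTGGGAA, on the minus strand at the start site, the C8a window 1 to TTCNNNGAA and 1 to GTTAAT, and the C8b window 1 to GTTAAT on the minus strand. No matches overlapped in these windows. Over all 32851 promoters of this length 8.30% held TTCNNNGAA, 11.1% held CTGGGAA, 10.8% held TTGCNNAA, 7.10% held GTTAAT and 0.0396% held the exact PPAR repeat. Promoters were at hand for 36 of the 48 genes, 38 windows in all, and of these 21.1% held TTCNNNGAA, 21.1% CTGGGAA, 26.3% TTGCNNAA, 31.6% GTTAAT and 0 the exact PPAR repeat. A match is a stretch of letters and was not tested as a binding site.

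Both complement regulators had their lowest value in fasted wild-type liver. C4bp, which encodes a protein that takes apart the C3 convertase of the classical and lectin routes, read 3389 units in fasted null and 2616 units in fasted wild-type liver, and 4192 units in fed null and 3961 units in fed wild-type liver. It was 1.51-fold lower after fasting in wild-type liver, close to the threshold, with a log2 difference of -0.31 for fasting in null liver. Cfi, the protease that cuts C3b and C4b, read 4691 units in fasted null and 3419 units in fasted wild-type liver, and 3786 units in fed null and 4397 units in fed wild-type liver. It passed the threshold in 0 of the 4 comparisons.

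Of the 6 measured genes that start the classical and lectin routes, 0 were past the threshold between the genotypes in the fasted state and C2 was in the fed state. C2, the protease part of the C3 convertase of both routes, read 429 units in fasted null and 292 units in fasted wild-type liver, and 408 units in fed null and 254 units in fed wild-type liver. Both null pools stood above both wild-type pools. C2 was 1.61-fold higher in null liver in the fed state and 1.47-fold higher in the fasted state, just short of the threshold. Its fasting differences were 0.07 in null and 0.20 in wild-type liver.

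Mbl1 and Mbl2 encode the mannose-binding lectins A and C, which recognize sugars on microbes. Mbl1 read 463 units in fasted null and 608 units in fasted wild-type liver, and 741 units in fed null and 776 units in fed wild-type liver. It was 1.601-fold lower after fasting in null liver, with a log2 difference of -0.35 in wild-type liver. Mbl2 read 2026 units in fasted null and 1647 units in fasted wild-type liver, and 2150 units in fed null and 2159 units in fed wild-type liver. The 2 lectins thus pointed in opposite directions between the fasted genotypes, at -0.39 for Mbl1 and 0.30 for Mbl2, both under the threshold.

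The other proteases of these routes passed the threshold in 0 of the comparisons. Masp1 and Masp2 are the serine proteases that travel with the lectins, and they differed by 0.24 and -0.25 between the fasted genotypes. Masp1 read 1541 units in fasted null and 1309 units in fasted wild-type liver, and 1204 units in fed null and 1326 units in fed wild-type liver. A dimmer probe set of Masp1 gave 0.31 between the fasted genotypes. For fasting in null liver it gave -0.35, against 0.36 for the brightest, and between the fed genotypes 0.15 against -0.14. Those signs depended on the probe set. Masp2 read 286 units in fasted null and 342 units in fasted wild-type liver, and 282 units in fed null and 335 units in fed wild-type liver, so both null pools were below both wild-type pools. C1ra, a protease of the first component, read 1271 units in fasted null and 1262 units in fasted wild-type liver, and 1508 units in fed null and 1425 units in fed wild-type liver.

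In the alternative arm Cfb, the protease of the alternative C3 convertase, read 3621 units in fasted null and 3704 units in fasted wild-type liver, and 3980 units in fed null and 4386 units in fed wild-type liver, with no difference past the threshold. Cfp encodes properdin, which stabilizes that convertase and is made by leukocytes. It read 29.3 units in fasted null liver and lay below the floor in fasted wild-type liver, at 14.7 units, and it read 19.9 units in fed null and 18.3 units in fed wild-type liver. Cfp was thus at least 1.83-fold higher in fasted null liver, on a signal near the floor. Kupffer cell and macrophage markers moved alongside. Of the 10 measured ones 7 were higher and 0 lower between the fasted genotypes, and the 11 in the table, set to the floor where below it, summed to 1166 units in fasted null, 583 units in fasted wild-type, 1013 units in fed null and 974 units in fed wild-type liver, with Cd68 at the floor on all arrays. Stellate cell and fibroblast markers also differed, with 4 of the 6 measured ones higher and 0 lower between the fasted genotypes. Between the fed genotypes 3 were higher and 0 lower. Of all measured genes 8.58% were higher between the fasted and 2.38% between the fed genotypes. Col1a2 was above the floor on the null arrays alone, so it could differ between the genotypes in 1 direction only. The 9 stellate cell and fibroblast markers in the table summed to 2779 units in fasted null and 1564 units in fasted wild-type liver, and 2049 units in fed null and 1559 units in fed wild-type liver. Col1a1, Des and Lrat were at the floor on all arrays. The part of either marker group in the Cfp difference was not tested, and in whole liver RNA more cells of a type and more RNA per cell cannot be told apart. The receptors of the anaphylatoxins, C3ar1 and C5ar1, were at the floor on all arrays, with highest values of 8.95 and 13.8 units.

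**Figure D4:**
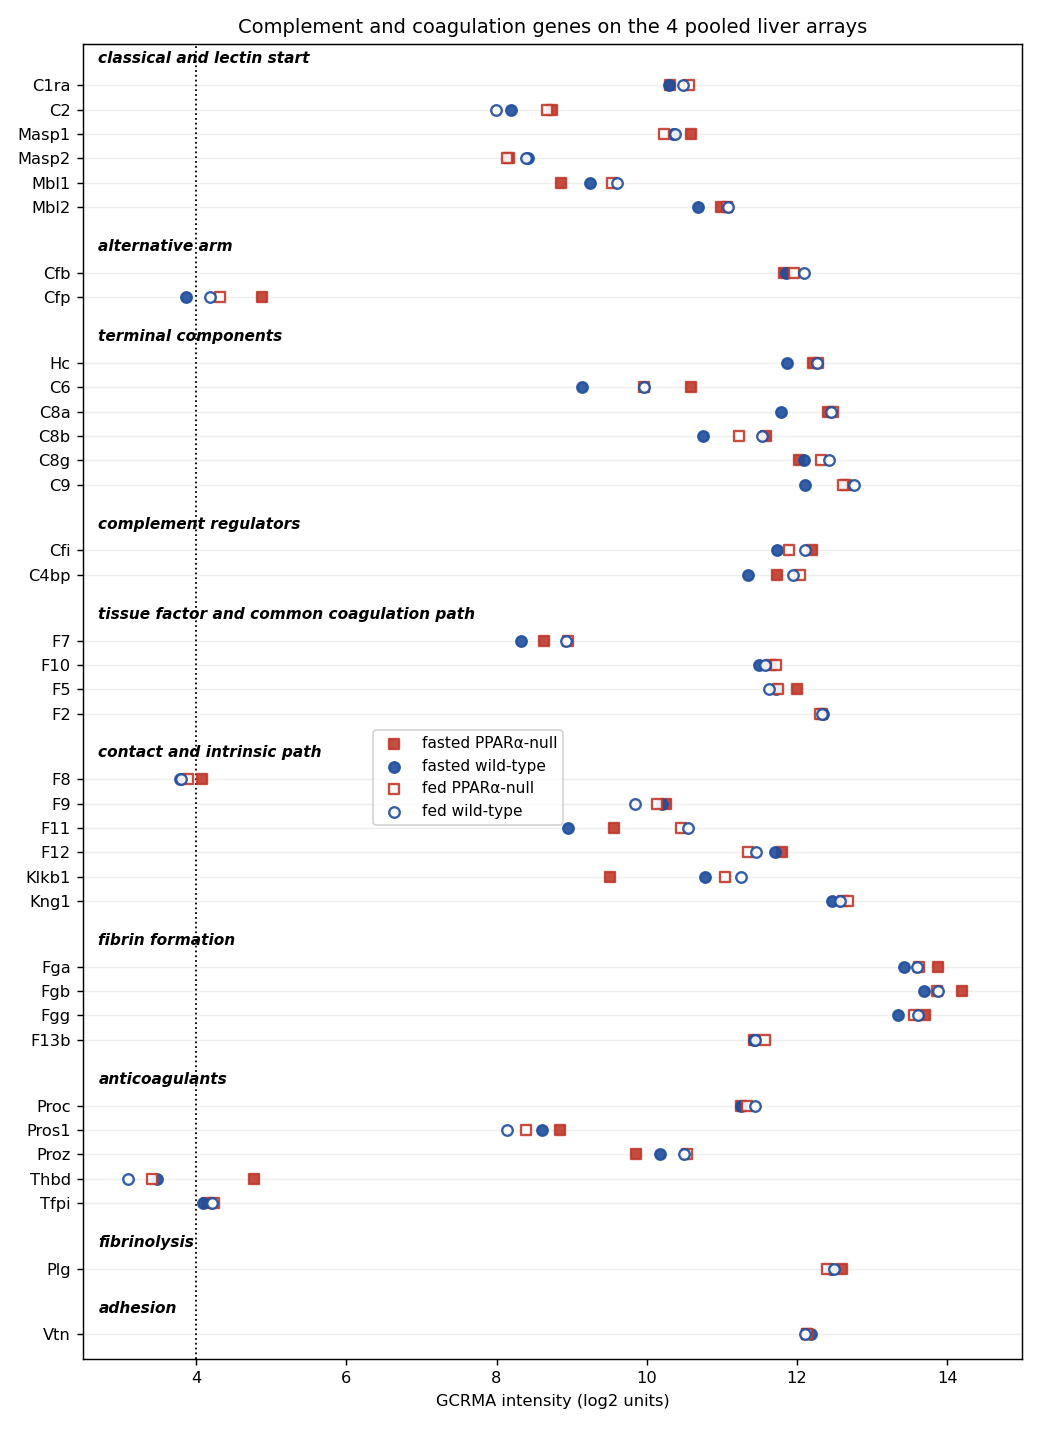
GCRMA intensity on a log2 axis of the 37 measured genes, grouped by role, with 1 point per pooled array (squares for PPARα-null, circles for wild-type, filled for fasted, open for fed). The dotted line is the floor at log2 of 4, or 16 units. Cfp, F8, Thbd and Tfpi lie at the floor or near it, and every other gene is above 64 units on all 4 arrays.

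Of the contact and intrinsic path, Klkb1 and F11 were past the threshold, in opposite directions between the fasted genotypes. Klkb1 encodes plasma prekallikrein, which after activation cleaves kininogen and factor XII. It read 729 units in fasted null and 1751 units in fasted wild-type liver, and 2110 units in fed null and 2435 units in fed wild-type liver. The fasted null pool stood far below the other 3. In the fasted state Klkb1 was 2.40-fold lower in null liver, and it was 2.89-fold lower after fasting in null liver, while the fasting difference in wild-type liver was 1.39-fold, under the threshold.

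F11 encodes factor XI, a homologue of prekallikrein that activates factor IX. It read 756 units in fasted null and 493 units in fasted wild-type liver, and 1402 units in fed null and 1493 units in fed wild-type liver. Both fasted pools stood below both fed pools. F11 was 3.03-fold lower after fasting in wild-type and 1.86-fold lower after fasting in null liver, and in the fasted state it was 1.53-fold higher in null liver. F11 and Klkb1 are adjacent genes on chromosome 8, and the order of the fasted pools was reversed between them.

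The other genes of this path stayed under the threshold. F12, the gene of the factor that starts contact activation, read 3579 units in fasted null and 3333 units in fasted wild-type liver, and 2612 units in fed null and 2800.2 units in fed wild-type liver, so both fasted pools were above both fed pools. Kng1, the kininogen gene, read 6242 units in fasted null and 5669 units in fasted wild-type liver, and 6543 units in fed null and 6079 units in fed wild-type liver. F9, whose product is the protease missing in haemophilia B, read 1224 units in fasted null and 1175 units in fasted wild-type liver, and 1121 units in fed null and 918 units in fed wild-type liver. F8, the cofactor of factor IX, which endothelial cells make, read 17.0 units in fasted null liver and was below the floor on the other 3 arrays, at 13.9 units in fasted wild-type, 14.9 units in fed null and 13.9 units in fed wild-type liver.

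In the tissue factor and common path F7 was the 1 gene past the threshold. F2, the prothrombin gene, read 5141 units in fasted null and 5227 units in fasted wild-type liver, and 5079 units in fed null and 5169 units in fed wild-type liver, with no difference above 0.03 in size. F7, the protease that pairs with tissue factor, read 397 units in fasted null and 322 units in fasted wild-type liver, and 494 units in fed null and 484 units in fed wild-type liver. F7 was 1.503-fold lower after fasting in wild-type liver, at the threshold, against 1.24-fold after fasting in null liver. F10 and F5 encode the protease and the cofactor that together activate prothrombin, and they differed by 0.16 and 0.28 between the fasted genotypes. F10 read 3232 units in fasted null and 2893 units in fasted wild-type liver, and 3365 units in fed null and 3060.0 units in fed wild-type liver. F5 read 4086 units in fasted null and 3361 units in fasted wild-type liver, and 3420 units in fed null and 3163 units in fed wild-type liver. A second, dimmer probe set of F5 gave -0.12, so the sign of F5 depended on the probe set. For F10 dimmer probe sets gave 0.30 and 0.34 between the fasted genotypes. Between the fed genotypes they gave -0.24 and -0.16, against 0.14 for the brightest, so that sign also depended on the probe set. F3, the gene of tissue factor, was at the floor on all arrays.

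The 3 fibrinogen chains assemble into the precursor of fibrin, and in 0 of the comparisons was a chain past the threshold. Fga read 15100.0 units in fasted null and 11007 units in fasted wild-type liver, and 12635 units in fed null and 12382 units in fed wild-type liver. Fgb read 18688 units in fasted null and 13260.2 units in fasted wild-type liver, and 14831 units in fed null and 15070.3 units in fed wild-type liver. Fgg read 13279 units in fasted null and 10383 units in fasted wild-type liver, and 12037 units in fed null and 12446 units in fed wild-type liver. In each chain the fasted null pool was the highest and the fasted wild-type pool the lowest. The fold between the fasted genotypes was 1.37 for Fga, 1.41 for Fgb and 1.28 for Fgg, with differences between -0.05 and 0.03 in the fed state. F13b, the carrier subunit of the factor that crosslinks fibrin, read 2754 units in fasted null and 2755 units in fasted wild-type liver, and 3051 units in fed null and 2791 units in fed wild-type liver.

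The anticoagulant genes did not share a direction. Proz encodes protein Z, the cofactor of an inhibitor of factor Xa. It read 924 units in fasted null and 1159.9 units in fasted wild-type liver, and 1483 units in fed null and 1445 units in fed wild-type liver. Proz was 1.61-fold lower after fasting in null liver, and a second probe set gave -0.66 on the log2 scale in the same comparison, while the fasting difference in wild-type liver was -0.32. Pros1, the gene of protein S, a cofactor of activated protein C, read 461 units in fasted null and 391 units in fasted wild-type liver, and 336 units in fed null and 281 units in fed wild-type liver. Each fasted pool exceeded the fed pool of its genotype, by 0.46 in null and 0.48 in wild-type liver, under the threshold. Proc, the gene of protein C itself, read 2439 units in fasted null and 2435 units in fasted wild-type liver, and 2573 units in fed null and 2784 units in fed wild-type liver. Tfpi, the inhibitor of the tissue factor complex, was near the floor, at 17.8 units in fasted null and 17.1 units in fasted wild-type liver, and 18.9 units in fed null and 18.6 units in fed wild-type liver.

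Thbd encodes thrombomodulin, the endothelial receptor through which thrombin activates protein C. It read 27.3 units in fasted null liver and was below the floor on the other 3 arrays, at 11.2 units in fasted wild-type, 10.6 units in fed null and 8.58 units in fed wild-type liver. It was at least 1.71-fold higher in fasted null liver in both comparisons that hold that pool. Of the 8 measured endothelial markers 3 were higher and 2 lower between the fasted genotypes. The 9 in the table summed to 1023 units in fasted null and 646 units in fasted wild-type liver, and 729 units in fed null and 715 units in fed wild-type liver, and Pecam1 was at the floor on all arrays. Stab2 was the largest term of both fasted sums, at 637 units in null and 314 units in wild-type liver. Clec4g went the other way, at 34.9 units in fasted null and 70.8 units in fasted wild-type liver, and so did Stab1. The part of the endothelial markers in the Thbd difference was not tested.

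Plg was the 1 measured gene of fibrinolysis. Plg, the plasminogen gene, read 6177 units in fasted null and 5605 units in fasted wild-type liver, and 5412 units in fed null and 5752 units in fed wild-type liver, with no difference past the threshold. The plasminogen activator genes Plat and Plau and the urokinase receptor gene Plaur were at the floor on all arrays. Of the adhesion proteins, Vtn, the gene of vitronectin, read 4491 units in fasted null and 4653 units in fasted wild-type liver, and 4482 units in fed null and 4406 units in fed wild-type liver. Its log2 difference between the fasted genotypes was -0.05, and a dimmer probe set of Vtn gave 0.25. Vwf, which endothelial cells and megakaryocytes express, was at the floor on all arrays.

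Some of the coagulation proteins share a modification, the vitamin K dependent carboxylation of glutamates. Among their 7 genes (F2, F7, F9, F10, Proc, Pros1 and Proz) 0 were past the threshold between the genotypes in either state, with medians of 0.06 fasted and 0.04 fed. Of all measured genes 8.58% were higher and 13.6% lower between the fasted genotypes, and 2.38% and 2.12% between the fed genotypes. After fasting 1 of the 7 was lower in wild-type (F7) and 1 in null liver (Proz). The shares of all measured genes lower were 8.29% and 18.0%. With 7 genes these counts cannot be told apart from those shares. Ggcx, the carboxylase gene, read 41.3 units in fasted null and 33.5 units in fasted wild-type liver, and 71.1 units in fed null and 57.6 units in fed wild-type liver, a log2 difference of -0.78 for fasting in each genotype.

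A further 51 genes of these cascades outside the list were read for context, of which 34 were measured. This further list was chosen with earlier results of these data known, so its shares are description only. Between the fasted genotypes 8 were higher (23.5%) and 2 lower (5.88%), against 8.58% and 13.6% of all measured genes. The largest differences were in the C1q chain genes C1qb and C1qa, at 3.59-fold and 2.91-fold higher, and in Fcna, a ficolin gene, at 2.52-fold higher, all 3 of which macrophages express. C1qa, C1qb and Vsig4 are also among the macrophage markers summed above. Tfpi2, an inhibitor of serine proteases, was 2.19-fold lower in fasted null liver. In the fed state Anxa2, a cell surface receptor of plasminogen, was 2.22-fold higher in null liver, at 60.3 units against 27.2 units in wild-type liver. It was the 1 gene of the 34 past the threshold (2.94%), close to the 2.38% of all measured genes that were higher. After fasting in null liver 4 of the 34 were higher (11.8%) and 7 lower (20.6%), close to the 12.4% and 18.0% of all measured genes. In wild-type liver 1 was higher (2.94%) and 8 were lower (23.5%), against 8.20% and 8.29%. Fgl1, a fibrinogen-related hepatocyte protein, was 8.23-fold higher after fasting in null and 3.95-fold higher in wild-type liver. Tfpi2 was 4.30-fold lower after fasting in null and 2.11-fold lower in wild-type liver. C1qb was 2.04-fold and Vsig4, a complement receptor of Kupffer cells, 1.88-fold lower after fasting in wild-type liver. Mcfd2, part of the cargo receptor for factors V and VIII, was 2.07-fold and Anxa2 2.73-fold lower after fasting in null liver.

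The number of higher genes in fasted null liver depended on the scaling of the arrays. Subtracting from each array its median log2 value over probe sets of at least 64 units added 0.10 to the fasted null array and took 0.05 from the fasted wild-type array. Between the fasted genotypes, 11 of the 37 genes were then higher and 1 lower in null liver, against 12.6% of all 7062 genes measured after centring higher and 10.2% lower. Quantile normalization and lowess each gave 7 higher genes of the list, and the share of all measured genes was not computed under either. All 6 genes called before were among the 11, and C2, C9, Cfi, Fga and Fgb joined them. Over all measured genes the share of lower genes among those past the threshold was 61.4% as deposited and 44.9% after centring. For fasting in null liver centring gave 4 higher and 2 lower genes, against 15.9% of all measured genes higher and 14.4% lower, and Mbl1 and Proz no longer passed the threshold.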

How the data were processed

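Liver RNA pools of 4 groups were hybridized to Affymetrix MOE430A arrays, 1 array per group. The series text and the methods of the study give 5 mice per group, and the study's results give 4 to 5 per pool. The deposited intensity values were computed by the authors with GCRMA, for which the submitters' notes on processing name version 2.20. It corrects background by probe sequence, normalizes quantiles between arrays and summarizes probes, and the values are linear. The set of arrays that GCRMA normalized jointly was not given in the sources read, and scanner files were not used.

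Values were converted to log2. Of the 22626 probe sets that are not controls, 20380 name 1 gene, 691 name several and 1555 are unnamed here. Symbols of 20351 were looked up in the RefSeq table of GRCm38.p6 and 0 changed. The probe set with the highest mean stood for its gene, and log2 values under 4 were raised to 4, the floor. A fold against an array at the floor is written as at least. The threshold was 1.5-fold with no test, as in the methods of the study where arrays were pooled. With 4 arrays, precision is limited by their number. Every measured gene of the list was named. From the further cascade genes up to 4 per comparison were named, by size. Promoters and motifs followed a written rule and come from RefSeq (GRCm38.p6). The vitamin K, fibrinogen and C8 groups and the genes of the bar plot were chosen after values were seen. The list, the lists of further genes and markers, and the rules were chosen with earlier results of these data known.

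Other settings tried were a floor at log2 of 6 or none, a threshold of 2-fold, centring, quantile normalization, lowess detrending (fraction 0.3), leaving out probe sets with the suffixes x, s and a, averaging probe sets and counting probe sets. Counting was tested on simulated data. Python 3.11.15, numpy 2.4.6, pandas 2.3.3, scipy 1.17.1, statsmodels 0.14.6 and matplotlib 3.10.9 were used.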

Additional observations from a re-analysis of the deposited data

Results flagged for a closer look

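In 3 genes the fasting difference had opposite signs in the genotypes, by 1.2-fold or more in each and with all 4 values above the floor. For C6 it was 0.64 in PPARα-null and -0.83 in wild-type liver, a difference of 1.46 on the log2 scale. For C8b it was 0.37 in PPARα-null and -0.78 in wild-type liver, a difference of 1.15. For Cfi, the complement protease factor I, it was 0.31 in PPARα-null and -0.36 in wild-type liver, a difference of 0.67. The same rule was met by 282 of all 6947 measured genes (4.06%), and by 8.11% of the 37 genes of the list. All 4 values were above the floor in 5775 of the 6947 genes and in 34 of the 37. The list could thus meet the rule more often for its brightness alone. The differences of C6, C8b and Cfi were not tested, since each group holds 1 pooled array.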

How the results depend on the processing

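Of the 21 calls past 1.5-fold, which fall on 13 genes, 14 were kept under all 7 alternatives that keep this threshold and give a value per gene. The other 7 each lost the call under 1 alternative. C8b (in both of its comparisons) had no probe set left without the suffixed ones, Cfp and Thbd (in both of its comparisons) were not measured with a floor at 64 units, and Mbl1 and Proz fell under the threshold for fasting in PPARα-null liver after centring. No called gene changed direction under these alternatives. With a 2-fold threshold 1 gene was higher in PPARα-null liver in the fasted state (C6), 0 were higher in the fed state, 1 was lower after fasting in wild-type liver (F11), and 0 were higher and 1 lower (Klkb1) after fasting in PPARα-null liver. With a floor at 64 units 1 gene was higher after fasting in PPARα-null liver. For the counts at 2-fold and at this floor the share of all measured genes was not computed, so they have no background here. With centring 11 genes were higher in PPARα-null liver in the fasted state, against 887 of 7062 measured genes, and 4 were higher and 2 lower after fasting in PPARα-null liver, against 1124 and 1019. Values of Cfp, F8, Thbd and Tfpi lie at or near the floor, where folds are bounds or have little meaning. No paired analysis was possible because each group holds 1 array of pooled RNA.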

Other observations

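Several of the genes are neighbours in the RefSeq annotation, and their values are given side by side without explanation. On chromosome 8, F7, F10 and Proz lie next to each other, and their fasting differences were -0.31, -0.06 and -0.68 in PPARα-null and -0.59, -0.08 and -0.32 in wild-type liver. Dimmer probe sets of F10 gave 0.08 and 0.21 in PPARα-null and -0.46 and -0.28 in wild-type liver. On chromosome 3, Fgg, Fga and Fgb lie next to each other, with differences of 0.35, 0.46 and 0.50 between the fasted genotypes. On chromosome 4, C8b and C8a are adjacent, with 0.84 and 0.62 in the same comparison. On chromosome 17, Cfb and C2 are adjacent, with -0.03 and 0.55 between the fasted and -0.14 and 0.68 between the fed genotypes.

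Over the 37 measured genes the fasting differences of PPARα-null and wild-type liver had a Pearson r of 0.41 and a Spearman rho of 0.38, against 0.58 and 0.53 over all 6947 measured genes. These are correlations across genes of the same 4 arrays, and genes are not independent replicates. The fasting difference was more positive in PPARα-null than in wild-type liver for 27 of the 37 genes, with a median of 0.17 for the null minus wild-type value, against 3234 of 6947 measured genes and a median of -0.03. This comparison rests on all 4 arrays. Thbd and F8, above the floor on the fasted PPARα-null array alone, are among the 27 genes and could differ in this direction only. They also enter the median and both correlations.

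Serpina10, the gene of the inhibitor that protein Z assists, read 1187 units in fasted PPARα-null and 725 units in fasted wild-type liver, and 1175 units in fed PPARα-null and 1182 units in fed wild-type liver. The fasted wild-type pool was the lowest, as for C8a. Proz, its cofactor, was lowest in fasted PPARα-null liver. Both genes were chosen for this remark after their values were seen.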
